A study of Homo sapiens with 8 samples.

Results

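GDF15 and 7 ligands of the transforming growth factor beta (TGF-beta) family were followed in cultured human lung adenocarcinoma cells, of the non-small cell type, treated with a PPARγ ligand, a platinum drug, or both. The members were all probe sets whose array annotation gives GDF15, TGFB1, TGFB2, TGFB3, INHBA, INHBB, BMP4 or BMP2. A probe set is a group of short probes that reads 1 transcript region, and 15 of the 22283 on the array met the rule, for 8 of the 11963 genes named there. The set was chosen by measured values: GDF15 was selected on its signals over the treatment groups, so all of its values below are a description with no test. The other 7 genes were taken because they belong to the same ligand family. Those of their probe sets that passed a filter on dim probe sets were tested, in a fit over all probe sets past that filter.

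Gene expression was measured in 8 samples, 2 arrays in each of 4 groups. Cells in serum-containing medium received the control treatment, rosiglitazone at 1 µM, carboplatin at 10 µM, or rosiglitazone with carboplatin (the combination) for 24 h. The labels name the control both as control medium and as DMSO, do not restate the doses of the combination and do not name the cell line. Whether the pair of arrays in a group stands for separate cultures is not stated either. A p-value here therefore reflects array-to-array spread alone, and that spread could be purely technical.

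Ligands of this family are secreted as precursors that proprotein convertases cleave, and they act as dimers. TGF-betas and activins signal through paired type I and type II serine/threonine kinase receptors to SMAD2 and SMAD3, and BMPs to SMAD1, SMAD5 and SMAD9. GDF15 is a distant member that cells release under stress. It is a known target of p53 and of the ATF4 stress pathway, and its receptor GFRAL, which signals with RET, is found in the hindbrain. In lung epithelium TGF-betas restrain growth and promote matrix production, and many carcinomas secrete GDF15.

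The sequences before the transcription starts are shown because the normalized means of GDF15 and of the tested TGFB2 probe sets were highest in the carboplatin group, while that of TGFB1 was not. For the TGFB2 probe set 209909_s_at the carboplatin and rosiglitazone means were close, at 5.83 and 5.80. On the deposited scale its mean was lower with carboplatin, at 39.8 against 47.2 with rosiglitazone. The table of RefSeq promoters used here (GRCh38.p14) matched 7 of the 8 genes, with 10 starts in all, and BMP2 was not matched. The 250 bases before the GDF15 start are at chr19:18385908-18386157 on the plus strand, and capitals mark TATAAA and the GC box GGGCGG on either strand (CCGCCC where it lies on the other strand). The other lines give the last 60 bases before the start, with TATAAA in capitals where it occurs. They lie at chr19:41353923-41353982 (minus strand) for TGFB1, chr1:218345276-218345335 (plus) for TGFB2, chr7:41703091-41703150 (minus) for INHBA and chr2:120346076-120346135 (plus) for INHBB.
GDF15: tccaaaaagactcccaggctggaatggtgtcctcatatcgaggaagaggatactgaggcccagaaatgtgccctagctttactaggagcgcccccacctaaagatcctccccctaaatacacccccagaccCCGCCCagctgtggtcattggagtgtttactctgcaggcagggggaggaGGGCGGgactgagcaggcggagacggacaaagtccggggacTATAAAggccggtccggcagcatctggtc
TGFB1: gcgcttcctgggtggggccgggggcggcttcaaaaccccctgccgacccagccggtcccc
TGFB2: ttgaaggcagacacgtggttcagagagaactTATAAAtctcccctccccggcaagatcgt
INHBA: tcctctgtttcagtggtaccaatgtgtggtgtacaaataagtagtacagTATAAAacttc
INHBB: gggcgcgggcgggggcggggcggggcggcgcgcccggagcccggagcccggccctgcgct

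GDF15 and TGFB2 hold TATAAA beginning 29 bases before the start, and in TGFB3 it begins 30 bases before the second of 2 starts. In INHBA it begins 11 bases before the start. On the gene's strand the motif was present in 6.8% of the 35116 RefSeq promoters in the same 250-base window. The GC box, searched on both strands, was present in 42.6% of them, with 2 matches in GDF15, 6 in TGFB1, 10 in INHBB and none in TGFB2. INHBB had the highest share of G and C of the 10 windows, 89.6%, against a median of 58% over all promoters. A p53 half-site (10 bases, searched on both strands, in 5.57% of promoters) had no match in these 250 bases of GDF15 and 1 match before the first start of TGFB3. The ATF4 element TGATGNAAN (3.13%), the SMAD palindrome GTCTAGAC (0.182%) and the direct-repeat PPAR element (0.0171%), searched on both strands, had no match in the 250 bases before any start of the member genes. These matches describe letters in the window only.

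Array brightness differed, with median deposited signals of 36.2 to 54.3, and the values compared are therefore quantile normalized log2(signal + 16), which understates changes of dim probe sets. With the deposited scaling the median probe set was 0.22 higher on the log2 scale with rosiglitazone than in control. Of the epithelial and lung markers 7 of the 9 on the array were above the filter on dim probe sets, with KRT7, KRT8 and KRT18 near the top of the array, while EPCAM and the lung factor NKX2-1 were below it. Of 5 fibroblast markers 2 were above the filter, and their summed deposited signal was 182 to 201 in control, 239 to 257 with rosiglitazone, 192 to 241 with carboplatin and 197 to 274 with the combination. Of 3 leukocyte markers 1 (CD3E) was above it, and the sums were 60.1 to 62.8, 93.6 to 116, 44.5 to 73.4 and 49.6 to 112 in the same order. Of 3 neuroendocrine markers 2 were above it (CHGA and NCAM1), with sums of 84.7 to 88.0, 83.1 to 91.4, 81.6 to 81.9 and 85.0 to 86.9. None of the 3 endothelial markers was above it, and neither was the 1 squamous marker on the array (KRT5). The part of these marker signals in the results below was not tested.

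Of the 15 probe sets, 7 passed the filter and entered the fit: 1 of GDF15, 1 of TGFB1, 3 of TGFB2, and 1 each of TGFB3 and INHBB. GDF15 is counted among these 7 below, but its values in the fit are a description. The other 8, which include every probe set of INHBA, BMP4 and BMP2, were too dim. In the contrasts with control no member passed the adjusted threshold by limma, against 0.36% of all probe sets for rosiglitazone, 0.015% for carboplatin and 0.225% for the combination. At an unadjusted p under 0.05 there were 2 members for rosiglitazone, 3 for carboplatin and 1 for the combination, GDF15 among them each time, against 10.4%, 5.17% and 8.42% of all probe sets.

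**Figure D1:**
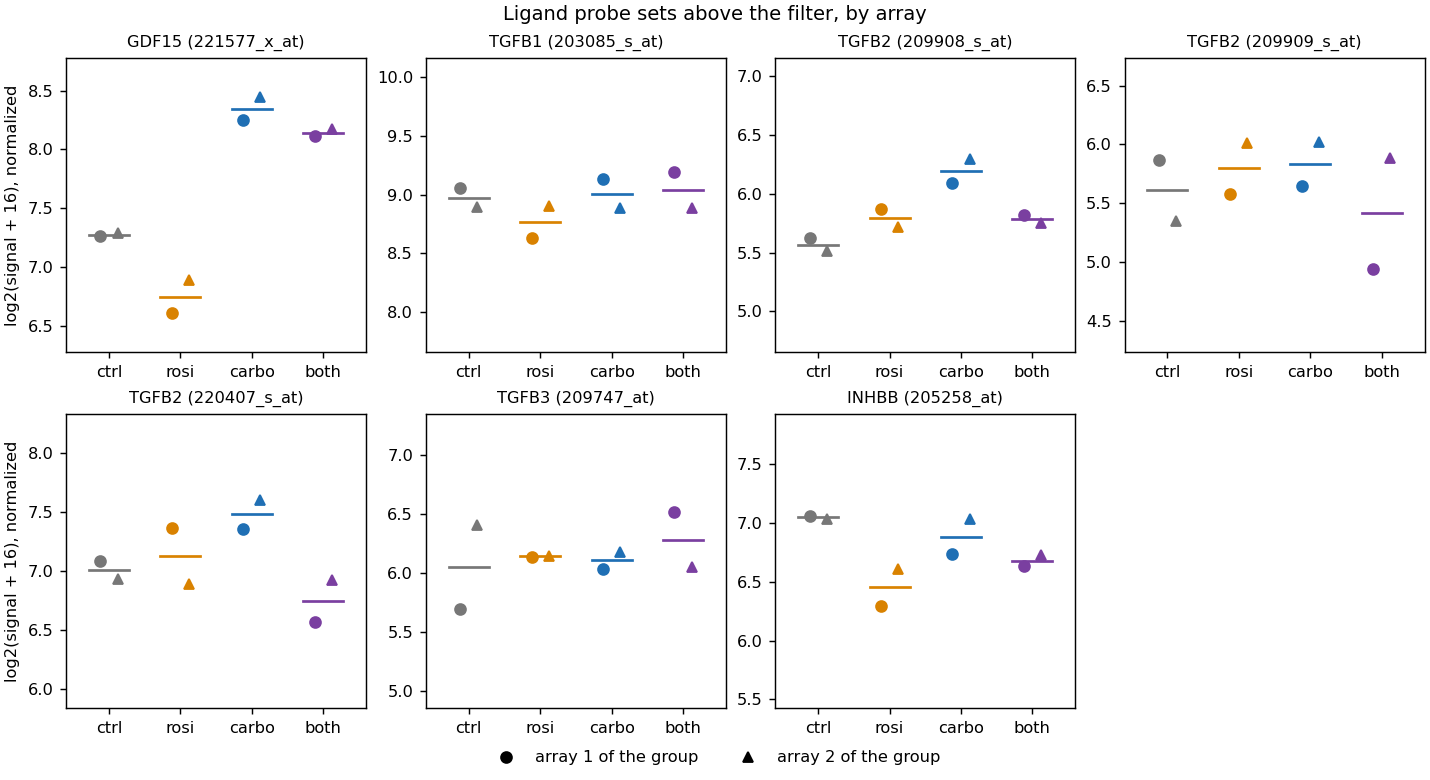
Normalized log2(signal + 16) of the 7 ligand probe sets above the filter on each of the 8 arrays, by group (ctrl, control; rosi, rosiglitazone; carbo, carboplatin; both, combination). Circles and triangles are array 1 and array 2 of a group, lines are group means, and every panel spans the same height in log2 units. GDF15 lies at 8.11 to 8.44 on the 4 arrays with carboplatin and at 6.61 to 7.29 on the 4 without.

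GDF15 was the member with the widest spread between groups. Its bright probe set had deposited signals of 150.2 and 115 on the control arrays and 82.9 and 133 under rosiglitazone. Under carboplatin they were 229 and 339, and under the combination 213 and 343. All 4 arrays with carboplatin lay above all 4 without it, on the deposited scale as well as after quantile or median scaling. On the normalized log2 scale the control arrays were at 7.26 and 7.29, the rosiglitazone arrays at 6.61 and 6.89, the carboplatin arrays at 8.25 and 8.44 and the combination arrays at 8.11 and 8.17. The order of the group means was therefore carboplatin, combination, control and rosiglitazone, with no overlap between neighbours after quantile normalization. With median scaling and on the deposited scale the carboplatin and combination arrays overlapped.

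GDF15 was 1.07 ± 0.16 higher on the log2 scale with carboplatin than in control (SE from limma, n = 2 arrays per group here and below), a 2.10-fold difference. With the combination it was 0.87 ± 0.16 higher than in control, or 1.82-fold, and 1.39 ± 0.16 higher than with rosiglitazone, or 2.63-fold. The mean of the 4 arrays with carboplatin exceeded that of the 4 without by 1.23 ± 0.11. In the fit this made GDF15 the 1 member past the adjusted threshold in combination against rosiglitazone and in the carboplatin main effect, where 0.0225% and 0.03% of all probe sets passed. It was also the 1 member with an unadjusted p under 0.05 in each, against 4.54% and 4.02%. The 4 arrays with carboplatin lay above the other 4 without overlap for 1 member, GDF15, against 1.2% of all probe sets, and below them for none, against 1.16%. The first of these calls was lost in 12 of 17 alternatives, among them both other scalings, the replicate block and leaving out any 1 array of control, rosiglitazone or the combination, and the second with the deposited scaling. These counts restate the values for which the gene was picked.

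With rosiglitazone alone GDF15 was 0.53 ± 0.16 lower than in control. The rosiglitazone and control arrays did not overlap after quantile or median scaling, but they did on the deposited scale, where the difference was -0.28 against a shift of 0.22 for the median probe set. Of all tested probe sets 22.2% were lower with rosiglitazone without overlap, and of the members 2 were. A further 19.8% were higher without overlap, among the members 1, a TGFB2 probe set (209908_s_at). Added to carboplatin, rosiglitazone went with a difference of -0.20 ± 0.16. The combination exceeded the sum of the 2 single-drug differences by 0.32 ± 0.23.

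All of this rests on 1 GDF15 probe set, whose suffix (_x_at) marks probes that may also bind other transcripts. The second GDF15 probe set, 221576_at, was below the filter, with signals of 1.03 to 2.404 and no separation of any group on the quantile normalized scale. These signals are far below the 16 added before the logarithm, so this probe set could show no difference and bears neither way on the other, and it was not tested.

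By its bright probe set, 203085_s_at, TGFB1, the TGF-beta isoform that acts on most epithelia, hardly differed between groups. This probe set read 566 and 385 on the control arrays, 372 and 600.3 under rosiglitazone, 433 and 467 under carboplatin, and 466 and 578 under the combination. Every group overlapped control. The log2 differences from control were -0.21 ± 0.16, 0.03 ± 0.16 and 0.06 ± 0.16 for rosiglitazone, carboplatin and the combination (limma adjusted p = 0.69, 0.99 and 0.96). The 95% interval for carboplatin was -0.32 to 0.38, so a change the size of that of GDF15 lay outside it. The dim probe set 203084_at behaved otherwise, with 30.9 and 15.3 in control and 9.30 and 7.98 with carboplatin. Its carboplatin arrays lay below the control arrays with quantile, median and deposited scaling, by a log2 difference of -0.62 on the quantile normalized scale. Of all tested probe sets 18.9% were lower with carboplatin without overlap on that scale. Both carboplatin signals are below the 16 added before the logarithm. The combination arrays were at 8.20 and 33.5 and overlapped control. The mean of 203084_at was below the filter, so it was not tested.

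TGFB2, the isoform that needs the coreceptor TGFBR3 to bind its type II receptor efficiently, is read by 4 probe sets, which share the transcript and are not replicates. All 4 had higher means with carboplatin than in control, and none of those tested passed. The untested 220406_at read 39.6 and 5.54 in control, and its carboplatin arrays lay between these, at 20.7 and 26.1. For 220407_s_at the control arrays read 129.8 and 85.1, the rosiglitazone arrays 148 and 133, the carboplatin arrays 120.4 and 185, and the combination arrays 64.9 and 132. After normalization its carboplatin arrays, at 7.36 and 7.60, lay above the control arrays at 7.08 and 6.93 and above the combination arrays at 6.57 and 6.92. On the deposited scale they overlapped with both.

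The probe set was 0.48 ± 0.21 higher with carboplatin than in control (limma adjusted p = 0.93). It was 0.74 ± 0.21 lower with the combination than with carboplatin (limma adjusted p = 0.40). This difference had the smallest p of any member in that comparison. There no member and 0.157% of all probe sets passed, and 1 member and 6.43% had an unadjusted p under 0.05. Its interaction, the combination less the sum of the single drugs, was -0.86 ± 0.30 (limma adjusted p = 0.82), the largest in size among the 7. By limma no probe set on the array passed for the interaction (0%), and 796 (5.97%) had an unadjusted p under 0.05, this one alone among the members.

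Another TGFB2 probe set, 209908_s_at, also had its highest mean under carboplatin. It read 34.7 and 24.7 on the control arrays, 44.9 and 45.2 under rosiglitazone, 44.2 and 65.0 under carboplatin, and 34.6 and 43.5 under the combination. Carboplatin exceeded control by 0.63 ± 0.22 (limma adjusted p = 0.93) and the combination fell short of carboplatin by a log2 difference of -0.41 ± 0.22 (limma adjusted p = 0.85). Both separations, carboplatin above control and above the combination, held with all 3 scalings. Carboplatin arrays lay above control without overlap for 3 of the 7 members, GDF15 and these 2 TGFB2 probe sets, where 16.2% of all probe sets did, and below it for 1, INHBB, where 18.9% did. The combination lay above control for 2 members (17.3% of all) and below it for 2 (19.5%). It lay above carboplatin for none (17.2%) and below it for 4 (17.1%), namely GDF15, INHBB and these 2 TGFB2 probe sets. It lay above rosiglitazone for 2, GDF15 and INHBB (16% of all), and below it for none (15.1%). These counts are those after quantile normalization. With median scaling and on the deposited scale the combination and carboplatin arrays overlapped for GDF15. INHBB then overlapped in each of the comparisons for which it is named here.

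The TGFB2 probe set 209909_s_at spread more widely within groups than between them, from 13.0 to 51.2 within the combination. Its differences from control were 0.19 ± 0.345, 0.23 ± 0.345 and -0.19 ± 0.345 in the order rosiglitazone, carboplatin and combination. Across the 8 arrays its normalized value went with array brightness (Pearson r = 0.76 with the log2 median signal, a description), more than that of any other tested member. The fourth, 220406_at, ran from 5.54 to 39.6 within control alone and was not tested.

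TGFB3, the isoform best known from palate and lung development, read 37.2 and 55.2 on the control arrays, 56.3 and 68.8 under rosiglitazone, 42.0 and 58.1 under carboplatin, and 62.1 and 60.7 under the combination. After normalization every group lay within the range of the control arrays except the combination array at 6.51 against 6.40 for the higher control. Differences from control were 0.09 ± 0.27, 0.06 ± 0.27 and 0.23 ± 0.27 (limma adjusted p = 0.94, 0.99 and 0.89). The intervals reach 0.68, 0.65 and 0.82, so a rise of that size could not be told from none.

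**Figure D2:**
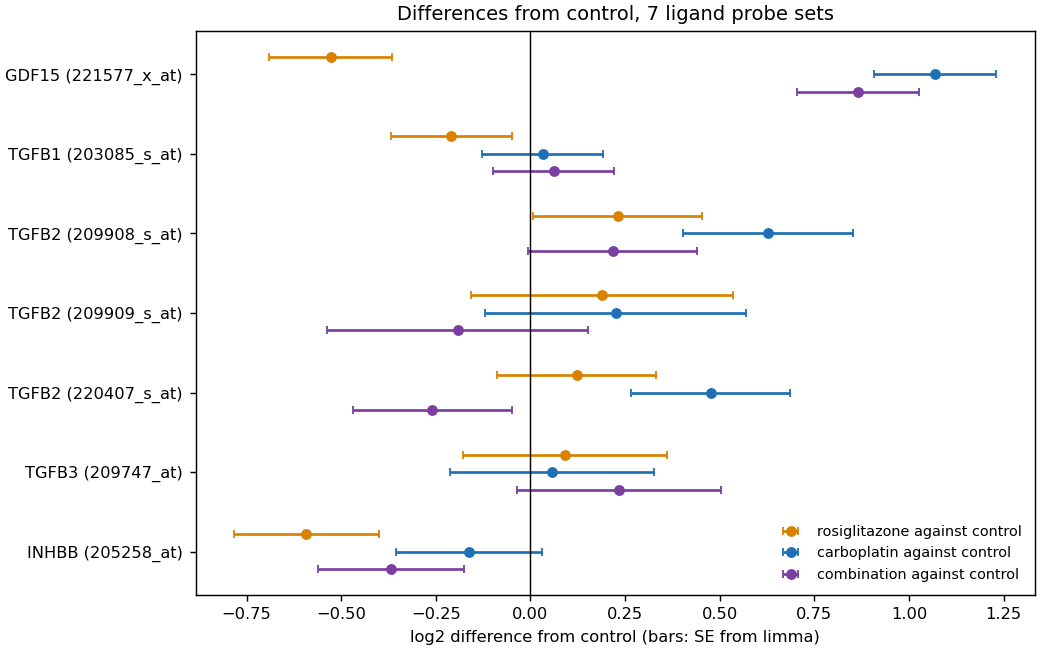
Log2 differences from control for the 7 ligand probe sets above the filter. Points are differences of group means with 2 arrays per group, bars are the standard error from limma, and colours mark rosiglitazone, carboplatin and the combination. GDF15 stands at 1.07 with carboplatin, INHBB at -0.59 with rosiglitazone, and the TGFB1 and TGFB3 points all lie within 0.24 of 0.

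INHBB, which encodes the beta-B subunit of activins and inhibins, had its lowest mean under rosiglitazone, without passing the test. It read 127 and 93.0 on the control arrays, 63.96 and 105 under rosiglitazone, 74.3 and 119 under carboplatin, and 68.4 and 111 under the combination. After quantile normalization the control arrays were at 7.06 and 7.04, the rosiglitazone arrays at 6.30 and 6.61, the carboplatin arrays at 6.74 and 7.03, and the combination arrays at 6.63 and 6.72. The 4 arrays with rosiglitazone thus lay below the 4 without it, as they did for 2.95% of all probe sets and 1 member, while 3.2% and no member lay above. This did not hold with median scaling or on the deposited scale.

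The difference was -0.59 ± 0.19 for rosiglitazone against control (limma adjusted p = 0.30), with an interval from -1.01 to -0.17, and -0.34 with the deposited scaling. For the 4 arrays with rosiglitazone against the 4 without it was -0.40 ± 0.14 (limma adjusted p = 0.31). In that main effect no member passed, against 0.885% of all probe sets, and 2 had an unadjusted p under 0.05, GDF15 and INHBB, against 9.96%. With carboplatin the difference of INHBB from control was -0.16 ± 0.19 and with the combination -0.37 ± 0.19. GDF15 and INHBB were the 2 tested members lower than control without overlap under rosiglitazone, and they parted under carboplatin. The interaction of INHBB was 0.39 ± 0.27.

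INHBA, BMP2 and BMP4 gave signals close to the floor of the array. INHBA encodes the beta-A subunit, which forms activin A and is also part of inhibin A. Its probe set 204926_at read 13.9 and 8.57 on the control arrays, 2.26 and 13.6 under rosiglitazone, 8.57 and 4.88 under carboplatin, and 6.49 and 4.37 under the combination. The second, 210511_s_at, ran from 0.89 to 4.21. The combination and control arrays did not overlap for the first on any of the 3 scales, with the combination lower, and likewise the rosiglitazone and control arrays for the second, with rosiglitazone lower. These are levels at which neither array of any group exceeded 16, the amount added before the logarithm. Such separations were common. After quantile normalization 19.5% of the probe sets above the filter were lower than control without overlap with the combination, and 22.2% with rosiglitazone. Neither INHBA probe set was tested.

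BMP2, an inducer of bone and an epithelial growth regulator, was read at 0.84 to 19.2 by 205289_at, with the highest value on carboplatin array 1 and the second carboplatin array at 5.92. Its other probe set, 205290_s_at, read 20.9 and 12.2 in control and 4.74 and 14.8 with the combination. BMP4, a close relative of BMP2, was the steadiest member, at 2.61 to 3.86 on all 8 arrays by 211518_s_at. The deposited table carries no detection calls, so these signals do not settle whether the transcripts were present.

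**Figure D3:**
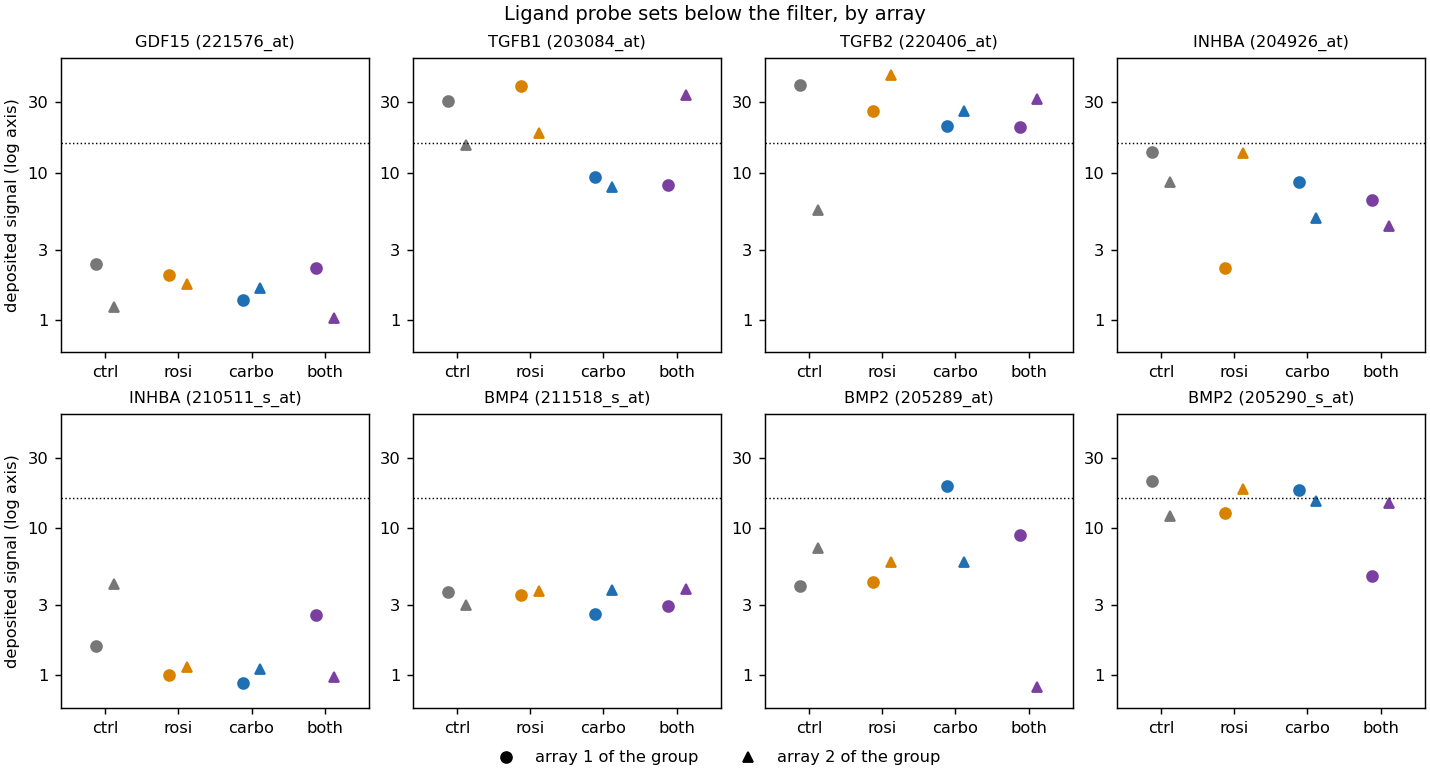
Deposited signal, on a log axis, of the 8 ligand probe sets below the filter on each of the 8 arrays, by group as abbreviated above. Circles and triangles are array 1 and array 2 of a group, and the dotted line is at 16, the amount added before taking logarithms. The second GDF15 probe set stays between 1.03 and 2.404 in every group, and BMP4 between 2.61 and 3.86.

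The members as a whole did not share a direction. With rosiglitazone 4 of the 7 tested probe sets were higher and 3 lower, with a median of 0.09, where 48.1% of all probe sets were higher and their median was -0.012. With carboplatin 6 were higher and 1 lower, with a median of 0.23 beside -0.0067 for all, of which 48.7% were higher. With the combination 4 were higher, with a median of 0.06 beside -0.012 for all, of which 48% were higher. The 3 comparisons share the control arrays, 3 of the 7 probe sets read TGFB2, and 1 reads GDF15, which was picked on its values. In these bulk samples, fewer cells with a transcript and less transcript per cell cannot be told apart.

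The genes whose normalized pattern was most like that of GDF15 over the 8 arrays, among 8025 other genes, were EPS8L2, RPS27L, POMZP3, TNFAIP2, CDKN1A and SNU13. Their Pearson r with GDF15 were 0.957, 0.942, 0.94, 0.937, 0.926 and 0.924, and Spearman's rho ran from 0.76 to 0.98. These are descriptions over arrays that share groups and brightness, and they were the top of a ranking. CDKN1A encodes the cell cycle inhibitor p21, and RPS27L is a ribosomal protein-like gene induced by p53. EPS8L2 is an actin regulator and TNFAIP2 a gene induced by tumour necrosis factor.

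With carboplatin RPS27L was 0.47 ± 0.13 above control, EPS8L2 0.55 ± 0.17 and TNFAIP2 0.19 ± 0.11, beside 1.07 ± 0.16 for GDF15. CDKN1A, which passed, rose by 1.55 ± 0.185 (limma adjusted p = 0.026). That call was lost in 11 of 17 alternatives, among them both other scalings, the replicate block and leaving out any 1 array of control, rosiglitazone or carboplatin (1.46 to 1.64), with the sign kept in all. With rosiglitazone CDKN1A differed from control by -0.02 ± 0.185, where GDF15 was at -0.53 ± 0.16. With median scaling TNFAIP2 ranked 57th and RPS27L 15th, and with the deposited scaling TNFAIP2 ranked 161st, SNU13 87th and RPS27L 24th. The other ranks lay between 1 and 8. Of the 4 of these genes searched (EPS8L2, RPS27L, TNFAIP2 and CDKN1A), RPS27L and EPS8L2 had a p53 half-site within 250 bases, as did 5.57% of all promoters. It began 59 bases before the start of RPS27L and 125 before the second start of EPS8L2. CDKN1A, TNFAIP2 and the first start of EPS8L2 had no match. The part of these matches in the expression values was not tested. The last 60 bases of RPS27L are shown with the match in capitals because this match was the nearer to a start. They lie at chr15:63157478-63157537 on the minus strand (RefSeq, GRCh38.p14).
RPS27L: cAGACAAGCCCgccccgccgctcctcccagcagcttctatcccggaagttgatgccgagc

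**Figure D4:**
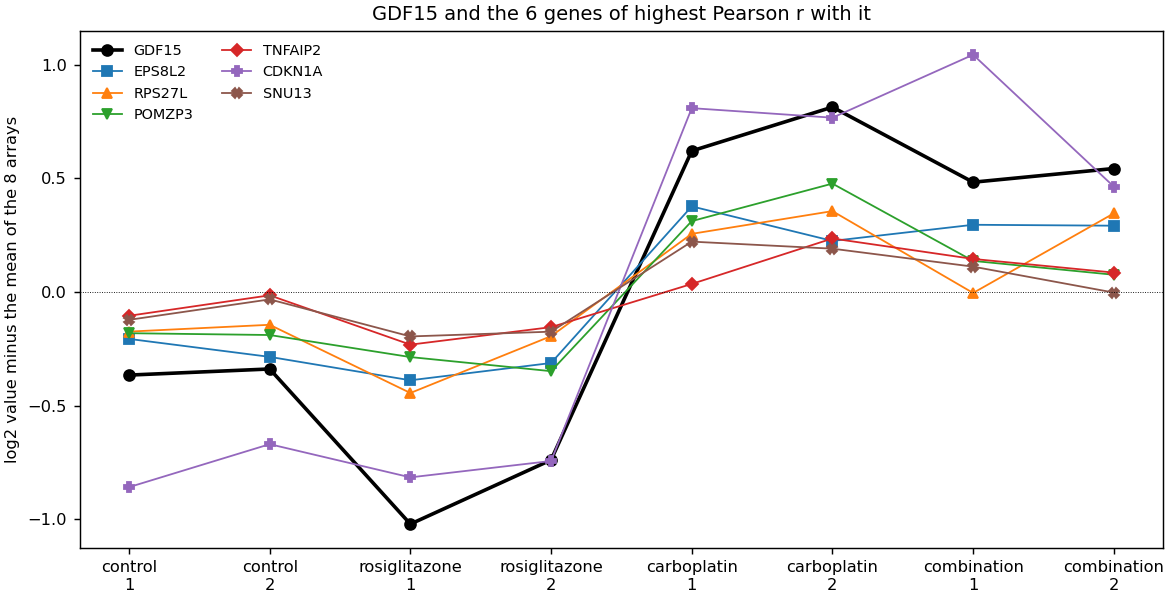
Normalized log2 values of GDF15 and of the 6 genes with the highest Pearson r with it, each less its own mean over the 8 arrays. GDF15 and CDKN1A are the widest of the 7, and all 7 have higher means on the carboplatin arrays than on the control arrays.

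Among p53 targets known beside GDF15, which were listed with earlier results of these data known, all 14 tested were higher with carboplatin than in control and 1, CDKN1A, passed. The median was 0.465 beside -0.02 over 8030 genes. Of these genes 44.1% were higher with rosiglitazone, 45.5% with carboplatin and 46.1% with the combination, which holds as the background for every list below. With the combination 11 of 14 were higher, again with CDKN1A past the threshold (1.52 ± 0.185, limma adjusted p = 0.0074; the call was lost without the trend and without control 1, where the difference was 1.42), and the median was 0.545 beside -0.02. TNFRSF10B, a death receptor gene, was at 0.51 ± 0.15 with carboplatin and PHLDA3, which restrains AKT, at 0.93 ± 0.17 with the combination, and neither passed. With rosiglitazone 5 of 14 were higher, and the median was -0.06 beside -0.03. Its smallest p-values were those of the repair gene XPC (0.40 ± 0.14) and PHLDA3 (0.44 ± 0.17), which did not pass.

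Among targets of ATF4 and CHOP, listed in the same way, 6 of 14 were higher with carboplatin and none passed, with a median of -0.08. ATF3, a stress-induced transcription factor, was at -0.67 ± 0.25 and the kinase-like regulator TRIB3 at -0.46 ± 0.20. With the combination 5 of 14 were higher, none passed, the median was -0.06 and TRIB3 was at -0.63 ± 0.20. With rosiglitazone 7 of 14 were higher and none passed, with VLDLR, a lipoprotein receptor, at 0.47 ± 0.17. CEBPB, a transcription factor gene of this list, was at 0.48 ± 0.11 there and at 0.54 ± 0.11 with the combination, and it passed for the 4 arrays with rosiglitazone against the 4 without (0.47 ± 0.08, limma adjusted p = 0.017). That call was lost with the deposited scaling, with median scaling and without the trend. It was also lost without control 1, rosiglitazone 1, either carboplatin array or combination 2, where the difference was 0.43 to 0.48.

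The other ligands of the family numbered 23, of which 10 were tested and none passed in any contrast. With rosiglitazone 7 were higher with a median of 0.21, with carboplatin 4 with a median of -0.09 and with the combination 5 with a median of 0.04. The smallest p-values with rosiglitazone were those of GDF2 (BMP9, a vascular ligand; 0.74 ± 0.285) and the oocyte factor GDF9 (0.74 ± 0.30). GDF9 (0.63 ± 0.30) and GDF11 (0.55 ± 0.28) led with carboplatin, and GDF2 (0.60 ± 0.285) and BMP6, a regulator of iron balance (0.43 ± 0.27), with the combination. On the control arrays GDF2 read 16.8 and 12.6, GDF9 13.8 and 26.9, and GDF11 24.8 and 14.4. The normalized control means of GDF2, GDF9 and GDF11 lay below the filter value of 5.378. These genes thus entered the test only through other groups where they were higher, which favours a rise over control, so their differences are a description.

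Of 19 receptor and coreceptor genes 9 were tested and none passed in any contrast. With rosiglitazone, carboplatin and the combination 4, 3 and 4 were higher, with medians of -0.01, -0.07 and -0.0018. The activin type I receptor ACVR1B was at -0.46 ± 0.19 and the coreceptor endoglin (ENG) at -0.65 ± 0.32 with rosiglitazone. BMPR2, the type II receptor of BMPs, was at 0.33 ± 0.20 and RET at 0.29 ± 0.20 with carboplatin. ACVR2A, a type II receptor of activins, was at -0.51 ± 0.22 and ENG at -0.68 ± 0.32 with the combination. TGFBR2, the type II receptor of the TGF-betas, lay within 0.13 of control in all 3.

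SMADs and their regulators were tested for 14 of 16 genes and none passed in any contrast. In the same order 10, 10 and 6 were higher, with medians of 0.10, 0.13 and -0.0062. The corepressor gene TGIF1 was at 0.40 ± 0.165 with rosiglitazone and 0.31 ± 0.165 with the combination, and the feedback inhibitor PMEPA1 at -0.28 ± 0.14 and -0.27 ± 0.14. TGIF2 (-0.42 ± 0.23) and the ubiquitin ligase gene SMURF2 (0.33 ± 0.205) had the smallest p-values with carboplatin.

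Genes of latency, processing and extracellular inhibition were tested for 12 of 22, and none passed in any contrast. In the same order 7, 6 and 6 were higher, with medians of 0.065, -0.0033 and 0.0092. ITGAV, the integrin subunit that takes part in releasing latent TGF-beta, was at 0.60 ± 0.16 with rosiglitazone (limma adjusted p = 0.19) and at 0.56 ± 0.16 with the combination (limma adjusted p = 0.29). Its signals were 234 and 217 on the control arrays, 372 and 467 under rosiglitazone, 184 and 276 under carboplatin, and 271 and 484 under the combination. FST, which encodes the activin-binding protein follistatin, was at 0.53 ± 0.18 with rosiglitazone. With carboplatin the convertase gene PCSK6 (-0.38 ± 0.25) and LTBP1, which tethers latent TGF-beta to matrix (-0.23 ± 0.19), led, and LTBP2 was at -0.30 ± 0.16 with the combination.

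Response genes of TGF-beta and BMP were tested for 20 of 22, and 2 passed, both upward with rosiglitazone. FN1, which encodes fibronectin, read 380 and 345 on the control arrays, 672 and 866 under rosiglitazone, 334 and 374 under carboplatin, and 483 and 712 under the combination. It rose with rosiglitazone by 0.81 ± 0.14 (limma adjusted p = 0.038). COL4A1, a basement membrane collagen gene, rose by 0.79 ± 0.14 (limma adjusted p = 0.042), from 364 and 274 in control to 608 and 717. Both also passed for the 4 arrays with rosiglitazone against the 4 without, at 0.68 ± 0.10 and 0.52 ± 0.10. There the FN1 call was lost with the deposited scaling and without the trend. The COL4A1 call was lost with these, with median scaling, without the filter and without any 1 array other than combination 1 (0.47 to 0.57). With rosiglitazone all 5 tested FN1 probe sets and both of COL4A1 were higher. The summed deposited signal of the fibroblast markers, given above, was higher with rosiglitazone too, as was that of the epithelial markers (9334 to 10880 in control, 10400 to 14380 with rosiglitazone). On the normalized scale COL1A1, 1 of the 2 fibroblast markers above the filter, differed from control by 0.01 ± 0.16. The other, DCN, was at 5.495 and 6.056 on the control arrays and higher, at 6.28 and 6.163, under rosiglitazone. The part of these markers in the rise of FN1 and COL4A1 was not tested.

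Both calls against control were lost in 12 of 17 alternatives, with the sign kept in all. They were lost without either control, rosiglitazone or carboplatin array, where the differences were 0.69 to 0.94 for FN1 and 0.69 to 0.88 for COL4A1. They were also lost with the deposited scaling (1.042 and 1.025) and with median scaling (0.82 and 0.80). The list as a whole had 9 of 20 genes higher with rosiglitazone and a median of -0.02. With carboplatin 7 of 20 were higher and none passed, with a median of -0.07, and the matrix metalloproteinase gene MMP2 (-0.37 ± 0.18) and the cadherin gene CDH2 (-0.34 ± 0.16) led. With the combination 11 of 20 were higher and none passed, with a median of 0.085. The smallest p-values there were those of the BMP response gene ID3 (0.75 ± 0.17) and FN1 (0.60 ± 0.14). Other genes of the list went down, 11 with rosiglitazone and 9 with the combination. Among them IL11, named after its values were seen, did not pass. Its normalized values were 6.73 and 7.10 in control, 6.18 and 5.95 with rosiglitazone, and 6.12 and 5.87 with the combination.

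**Figure D5:**
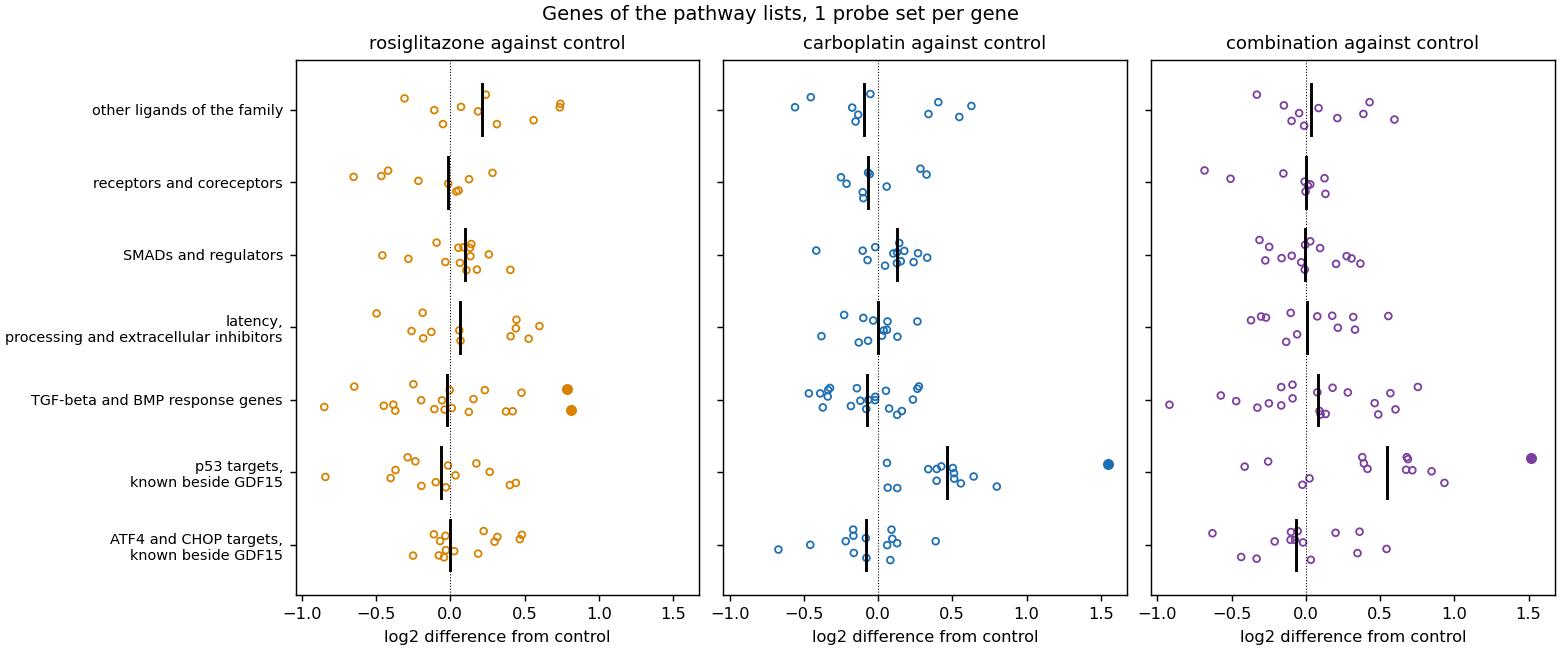
Log2 differences from control of the tested genes of each pathway list, 1 probe set per gene, for rosiglitazone, carboplatin and the combination. Filled points passed the adjusted threshold (FN1 and COL4A1 with rosiglitazone, CDKN1A with carboplatin and the combination), open points did not, and black bars are list medians. The p53 list has a median of 0.465 with carboplatin and 0.545 with the combination, and the medians of the other 6 lists lie within 0.22 of 0.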

How the data were processed

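The authors deposited intensity values, a linear signal per probe set of an Affymetrix human genome array, for 8 arrays. The summarising software and the scaling were not given in the sources used here. Per the labels' protocols, labelling started from oligo-dT. Signals were taken as log2(signal + 16) and quantile normalized. The 68 control probe sets and those with a mean below the 40th percentile were left out, which left 13338 of 22283. limma 3.58.1 in R 4.3.3 (lmFit, eBayes with an intensity trend) estimated the 4 group means together over the 8 arrays, and p-values were adjusted by Benjamini-Hochberg over all 13338 at a threshold of 0.05. It was tested on simulated data. The members and gene lists were chosen with earlier results of these data known. Probe sets of the members were all named, as were list genes that passed and the 2 of smallest p per list in each contrast with control (probe set of highest mean per gene). The 8 contrasts and their alternatives were other scalings, pseudocounts, filters, eBayes without trend, fewer groups, a replicate block and leaving out each array. Promoter sequences are from RefSeq (GRCh38.p14). Probes were matched to genes by the platform's annotation table, and its Entrez identifiers to RefSeq. The number of arrays limits the precision.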

Additional observations from a re-analysis of the deposited data

How the results depend on the processing

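GDF15 kept its sign in all 17 alternatives of each contrast with control. With the deposited scaling its difference from control was -0.28 for rosiglitazone and 0.96 for the combination. With a pseudocount of 64 it was 0.88 for carboplatin and 0.70 for the combination, and with a pseudocount of 1 it was 0.93 for the combination. Leaving out 1 array gave -0.66 to -0.39, 0.97 to 1.17 and 0.83 to 0.90 for rosiglitazone, carboplatin and the combination. The count of members passing in combination against rosiglitazone, 1, became 0 with the deposited scaling, median scaling, no filter, no trend and only the groups compared, and 0 to 1 when an array was left out: it was lost without either array of control, rosiglitazone or the combination. The carboplatin main effect went from 1 member to 0 with the deposited scaling, and combination against control from 0 to 1 with the filter at the 60th percentile.

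The labels number the arrays of each group 1 and 2, but deviations from the group means of equally numbered arrays correlated at only -0.11 to 0.25, so the numbers were not taken as pairs. With the replicate block the count of members was 0 for combination against rosiglitazone and unchanged elsewhere. With the control numbers crossed, chosen after seeing the data, it was 1 there, and 80, 2 and 47 probe sets of the whole array passed for rosiglitazone, carboplatin and the combination against control. The CDKN1A call was lost in 11 of 17 alternatives with carboplatin, among them without either control, rosiglitazone or carboplatin array (1.46 to 1.64), and in 2 of 17 with the combination, no trend and without control 1. The CEBPB call was lost in 8 of 16. The sign of 209909_s_at (TGFB2) changed in at least 1 alternative of each contrast with control, as did those of TGFB3 and of 203085_s_at (TGFB1), and 220407_s_at (TGFB2) changed sign in 1 alternative for rosiglitazone. Dim probe sets are limited by signal over background, which could not be assessed without detection calls.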

Other observations

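The ID genes, which encode inhibitors of helix-loop-helix transcription factors and answer to BMP signalling, had the following differences from control with rosiglitazone and with the combination (ID1, ID2 and ID4 were chosen after their values were seen). ID2 was at -0.65 ± 0.17 and -0.57 ± 0.17, ID3 at 0.42 ± 0.17 and 0.75 ± 0.17, ID4 at 0.38 ± 0.33 and 0.46 ± 0.33, and ID1 at -0.0038 ± 0.12 and 0.18 ± 0.12. None of them passed the threshold in limma (adjusted p = 0.20 and 0.35 for ID2, 0.43 and 0.12 for ID3, 0.73 and 0.78 for ID4, 0.99 and 0.77 for ID1), and differences between them were not tested.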
